A study of Mus musculus with 32 samples.

Results

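The Krueppel-like factor genes examined here were Klf2, Klf3, Klf4, Klf5, Klf6, Klf7, Klf10, Klf12, Klf13 and Klf15. These 10 genes were chosen by name, with earlier results of these data known, from the 25058 Ensembl genes that every file lists. They were followed through RNA-seq, Damage-seq and XR-seq in 4 mouse organs, and all 10 were found in the files. Krueppel-like factors are transcription factors with zinc fingers at the C-terminal end that bind GC-rich and CACCC sequences in promoters and enhancers. Some members, such as Klf2, Klf4, Klf5, Klf6 and Klf7, mostly activate transcription, Klf3 and Klf12 recruit the co-repressor CtBP, and Klf10 and Klf13 recruit the co-repressor Sin3. Several members are known as immediate-early genes, whose short transcripts appear quickly after stress, and Klf15 is known as a regulator of gluconeogenesis and amino acid breakdown in liver, muscle and kidney.

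The animals were wild-type C57BL/6J female mice of 6 or 7 months. A single intraperitoneal dose of 10 mg/kg cisplatin, a platinum drug that crosslinks neighbouring guanines, was given at zeitgeber time 1 h (hours after lights on), and organs were taken at 5 h. That interval is 4 h, whereas a tag on the samples reads 2 h, so the time is given here as stated in the protocol. RNA-seq compared kidney, liver, lung and spleen of treated mice with those of control mice that received the same volume of 154 mM saline. Each organ and treatment had 2 libraries, 16 in all. Damage-seq, which maps the platinum lesions still present, and XR-seq, which sequences the oligonucleotides cut out by nucleotide excision repair, each had 2 libraries per organ, all from treated mice, so these assays have no untreated background.

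RNA libraries held 15619474 to 162270280 reads on genes, XR-seq libraries 10658675 to 59779770 and Damage-seq libraries 1571167 to 6441367. The control pairs of lung and of spleen differed by only 2.75 and 2.98 times the variance of counting, against 39.3 to 349 times in the other 6 RNA pairs. Each of these pairs was counted as 1 sample, and the spread of a lone control was assumed to be that of the treated pair. Defining markers were where the organ labels place them: the 5 hepatocyte markers, the 4 lung epithelium markers and the 6 tubule and podocyte markers were each highest in the organ they name. Spleen libraries after cisplatin also held all 5 pancreas acinar markers, which rose, and lung libraries after cisplatin held lower B cell and T cell markers.

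The genes differed in size and surroundings, which bears on all 3 assays. In mm10 coordinates Klf2 is a gene of 2624 bp at chr8:72319033-72321656 on the plus strand, Klf4 of 5324 bp at chr4:55527143-55532466 on the minus strand, Klf6 of 8913 bp at chr13:5861482-5870394 on the plus strand and Klf10 of 9244 bp at chr15:38291463-38300706 on the minus strand. Klf15 covers 12663 bp at chr6:90462576-90475238 on the plus strand and Klf5 16346 bp at chr14:99298691-99315036 on the plus strand. Klf3 covers 29514 bp at chr5:64803388-64832901 on the plus strand, Klf13 52565 bp at chr7:63886351-63938915 on the minus strand and Klf7 92836 bp at chr1:64029447-64122282 on the minus strand. Klf12 is by far the longest, with 414048 bp at chr14:99870632-100284679 on the minus strand. The RNA library kit does not mark strand, and an opposite-strand lincRNA gene, Gm26649, overlaps 39.3% of the exon bases of Klf7, so Klf7 RNA and RNA of that gene cannot be told apart. For the other 9 members, GENCODE exons of another gene covered at most 3.59% of the exon bases.

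Control RNA levels came first, as the base for the cisplatin response. Levels are RPKM, reads per 1000 exon bases and 1000000 reads, here with library sizes scaled by TMM (trimmed mean of M values), so that a few abundant liver transcripts do not lower all other genes. All 10 members differed between the control organs in the edgeR test over the 4 organs, as did 69.1% of all 19100 genes tested. Klf2, which keeps lymphocytes quiescent and endothelium unreactive, was highest in spleen, with 84.0 and 86.4 RPKM in the 2 control libraries, then lung with 47.9 and 48.2. Kidney followed with 11 and 11.9 RPKM and liver with 9.54 and 8.84, a pair that did not differ beyond the spread (adjusted p = 0.227). Spleen and lung thus carried the most Klf2 and stood apart from each other (log2 difference lung minus spleen -0.86, adjusted p = 0.0312).

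Klf4, Klf5, Klf6 and Klf7 were highest in lung. Klf4, a factor of differentiating epithelium and of endothelium, ran from 35.6 and 37.7 RPKM in lung over 5.46 and 6.02 in spleen and 4.17 and 3.64 in kidney to 1.02 and 1.19 in liver, and each neighbouring pair differed (adjusted p = 9.65e-05, 0.0321 and 3.31e-05). Klf5, a factor of proliferating epithelium, had 9.51 and 9.78 RPKM in lung and 0.0447 and 0.0444 in liver, where only 6 reads were counted in each control library. Its levels in kidney and spleen lay between, and every neighbouring pair differed. Klf6, known as a gene induced by tissue injury, had 51.3 and 55.1 RPKM in lung, 30.9 and 34 in spleen, 13.3 and 13.5 in kidney and 6.70 and 7.87 in liver. Lung and spleen did not differ beyond the spread for Klf6 (adjusted p = 0.136), while spleen exceeded kidney and kidney exceeded liver (adjusted p = 0.00186 and 0.0118). Klf7, known from neurons and adipocytes, was low throughout, from 5.32 and 5.66 RPKM in lung to 0.875 and 1.12 in kidney, and kidney and liver did not differ beyond the spread (adjusted p = 0.486).

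Klf15 and the repressor genes Klf3, Klf10, Klf12 and Klf13 had other orders. Klf15 led in liver with 74.9 and 69.8 RPKM, followed by kidney with 22.8 and 35.1, lung with 12.3 and 12.5 and spleen with 1.30 and 1.22, and each neighbouring pair differed (adjusted p = 0.00278, 0.0207 and 0.000286). Klf12 also led in liver, but its 2 control libraries there were far apart, at 7.25 and 2.96 RPKM, and it had only 0.536 and 0.519 RPKM in spleen. Kidney, lung and spleen levels of Klf12 did not differ between neighbours beyond the spread (adjusted p = 0.250 and 0.483). Klf3, Klf10 and Klf13 spanned a narrower range, with means from 5.20 RPKM in kidney to 11.7 in spleen for Klf3, from 4.84 in kidney to 12.6 in lung for Klf10 and from 6.75 in kidney to 20.8 in spleen for Klf13. Without TMM scaling the order of kidney and liver is the other way round for Klf3 and Klf7, that of spleen and liver for Klf10 and that of lung and spleen for Klf3. The other orders held under both scalings. For Klf10 no neighbouring pair differed beyond the spread (adjusted p = 0.262, 0.192 and 0.129 from lung over liver and spleen to kidney), nor for Klf13 (0.727, 0.576 and 0.0585 from spleen over lung and liver to kidney). For Klf3 spleen and lung (adjusted p = 0.976) and lung and liver (0.0788) did not differ, and liver and kidney did (0.0452).

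**Figure D1:**
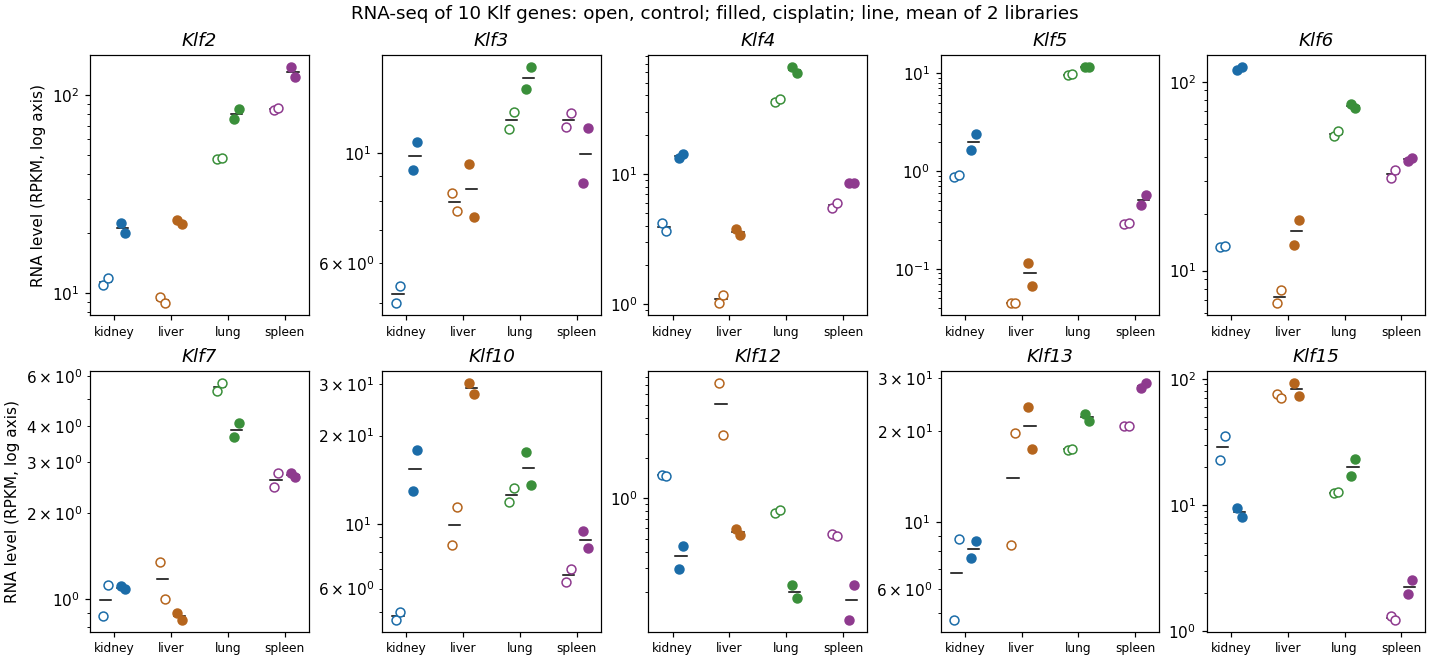
RNA levels of the 10 Klf genes in RPKM with TMM-scaled library sizes (log axis, with its own range in each panel) by organ, with open circles for control libraries, filled circles for cisplatin libraries and a line for the mean of 2 libraries. Klf6 in kidney moved from 13.3 and 13.5 to 114.8 and 120.0 RPKM, and Klf12 lay lower after cisplatin in all 4 organs.

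The comparison of cisplatin with control asked which members responded 4 h after the dose. In kidney 3 of the 10 members rose and 2 fell, against 2.4% and 2.65% of the 15471 genes tested (edgeR, tested against a log2 fold change of 0.4). The median log2 fold change of the members was 0.91, beside -0.0030 for all genes. The members were chosen with earlier results of these data known, so these comparisons with all genes are not independent of that choice. In liver none of the 9 members tested passed, in lung 1 of 10 fell and in spleen none of 10 passed. In bulk tissue fewer cells of a type and less RNA per cell cannot be told apart.

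Klf6 had the largest rise of the 10 in kidney. Its control libraries were at 13.3 and 13.5 RPKM and its cisplatin libraries at 114.8 and 120.0 RPKM, so the groups were widely separated. The fitted log2 fold change was 3.13 (SE 0.17, 8.74-fold, adjusted p = 0.00231). In liver Klf6 went from 6.70 and 7.87 to 13.7 and 18.6 RPKM (log2 fold change 1.17, SE 0.33, adjusted p = 0.361), in lung from 51.3 and 55.1 to 76.0 and 72.2 RPKM (0.44, SE 0.17, adjusted p = 0.733) and in spleen from 30.9 and 34 to 38.2 and 39.7 RPKM (0.25, SE 0.17, adjusted p = 1.00). In these 3 organs the cisplatin libraries lay above the controls but the test was not passed. After cisplatin, kidney thus had the highest mean Klf6 level of the 4 organs, while in control mice lung and spleen exceeded it.

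Klf4 and Klf10 also rose in kidney. Klf4 went from 4.17 and 3.64 to 13.2 and 14.1 RPKM (log2 fold change 1.80, SE 0.19, 3.49-fold, adjusted p = 0.0137). Klf10, also known as TGF-beta-inducible early gene 1, went from 4.69 and 4.99 to 12.9 and 17.8 RPKM (1.66, SE 0.21, 3.17-fold, adjusted p = 0.0186). In both genes all cisplatin libraries lay above the controls. Liver gave fitted changes of a like size, 1.73 (SE 0.39) for Klf4 and 1.56 (SE 0.33) for Klf10, but with a wider spread that did not pass (adjusted p = 0.200 and 0.182). In lung and spleen the log2 fold changes were 0.74 and 0.55 for Klf4 and 0.25 and 0.39 for Klf10, none past the test.

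The 2 members that fell in kidney were Klf12 and Klf15. Klf12 went from 1.48 in both control libraries to 0.294 and 0.441 RPKM (log2 fold change -1.99, SE 0.30, adjusted p = 0.0253). Klf15 went from 22.8 and 35.1 to 9.40 and 7.98 RPKM (-1.74, SE 0.24, adjusted p = 0.0232). The groups were apart in both genes. Klf15, the most abundant of the 10 members in control kidney, was sixth after cisplatin. The same gene had higher values after cisplatin in lung, from 12.3 and 12.5 to 16.9 and 23.2 RPKM, and in spleen, from 1.30 and 1.22 to 1.95 and 2.52 RPKM, but neither passed (adjusted p = 0.432 and 1.00).

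Not all kidney calls held when a treated library was left out. Without kidney cisplatin replicate 1, 2 members stayed past the threshold, Klf6 and Klf10, while Klf4, Klf15 and Klf12 had adjusted p = 0.0623, 0.0904 and 0.159 with log2 fold changes of 1.83, -1.88 and -1.77. Without kidney cisplatin replicate 2, Klf15 had adjusted p = 0.0512. In 1 fit over the 4 organs Klf12 in kidney had adjusted p = 0.0525 (log2 fold change -1.98).

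Klf12 was the only member that lay lower after cisplatin in all 4 organs, with the 2 groups of libraries apart in each, a pattern seen in 5.51% of the 19100 genes. In lung it fell from 0.777 and 0.811 to 0.223 and 0.178 RPKM (log2 fold change -2.02, SE 0.33, adjusted p = 0.0462), the only member called there, against 1.96% of 18210 genes that fell and 0.132% that rose. That call was lost without either lung control library, with log2 fold changes of -2.02 and -2.01 without control replicate 1 and 2. Leaving out a lung cisplatin library left 1 sample per group, so the fit over the 4 organs was used instead. It gave -2.19 and -1.87 without cisplatin replicate 1 and 2, with no call. With all libraries that fit did not call Klf12 in lung either (log2 fold change -2.03), so these values mix a change of fit with a left-out library. Lung libraries after cisplatin also had lower lymphocyte markers: the 5 B cell markers all fell, their sum going from 108 and 113 RPKM to 26.7 and 35.7 RPKM, 4 of 5 T cell markers fell, from 29.3 and 29.7 to 8.38 and 8.73 RPKM in sum, and 1 of 3 tested high endothelial venule markers, Glycam1, fell. Their part in the Klf12 value was not tested. In kidney, where Klf12 fell too, none of the B cell or T cell markers passed the test. In spleen Klf12 went from 0.536 and 0.519 to 0.123 and 0.226 RPKM (-1.57, SE 0.46, adjusted p = 0.989).

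In liver no gene passed the edgeR test in either direction (0% of 13868 rose and 0% fell), although 1287 had an unadjusted p under 0.05. DESeq2 called 188 genes there, of which 1 was a member, Klf12. Its 2 control libraries were at 7.25 and 2.96 RPKM and its cisplatin libraries at 0.589 and 0.535 RPKM, with a log2 fold change of -3.16 (SE 0.50, adjusted p = 0.0911) in edgeR and -3.14 (adjusted p = 4.84e-05) in DESeq2. Klf2, with 9.54 and 8.84 against 23.3 and 22.2 RPKM, gave 1.33 (SE 0.31, adjusted p = 0.233). The liver calls depended on single libraries. Without liver cisplatin replicate 1, 5 members were called (Klf2, Klf4, Klf6 and Klf10 higher, Klf12 lower), without cisplatin replicate 2 there were 3 (Klf4, Klf10 and Klf12), without control replicate 2 there was 1 (Klf12) and without control replicate 1 none. Klf5 had too few liver reads to be tested, 6 in each control library and 12 and 6 in the cisplatin libraries.

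In spleen 0.164% of 17686 genes rose and 0.017% fell in edgeR, with 768 genes at an unadjusted p under 0.05, and no member was called by edgeR or by DESeq2. Klf2, the most abundant member in that organ, went from 84.0 and 86.4 to 139.6 and 124 RPKM (log2 fold change 0.63, SE 0.19, adjusted p = 1.00). All 5 pancreas acinar markers rose in spleen, from a sum of 5.38 and 5.59 RPKM to 802 and 1059 RPKM. Their part in the members' values was not tested.

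Klf2, Klf4, Klf5, Klf6 and Klf10 had both cisplatin libraries above both control libraries in each of the 4 organs. These are 5 of the 10 members, while 3.61% of the 19100 genes had this pattern. Since the members were chosen with earlier results of these data known, this comparison is not independent of that choice. For Klf5 in liver it rests on 12 and 6 reads against 6 and 6, so that 1 cisplatin library lies above the controls only through the scaling of library sizes. Most of the single differences did not pass their test. For Klf2 the log2 fold changes were 1.33 in liver, 0.90 in kidney, 0.73 in lung and 0.63 in spleen, and for Klf5 they were 1.17 in kidney, 0.24 in lung and 0.82 in spleen. None of the values of Klf3, Klf7 and Klf13 passed. Those of Klf3 lay between -0.23 in spleen and 0.93 in kidney, those of Klf7 between -0.53 in lung and 0.14 in kidney and those of Klf13 between 0.27 in kidney and 0.58 in liver.

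**Figure D2:**
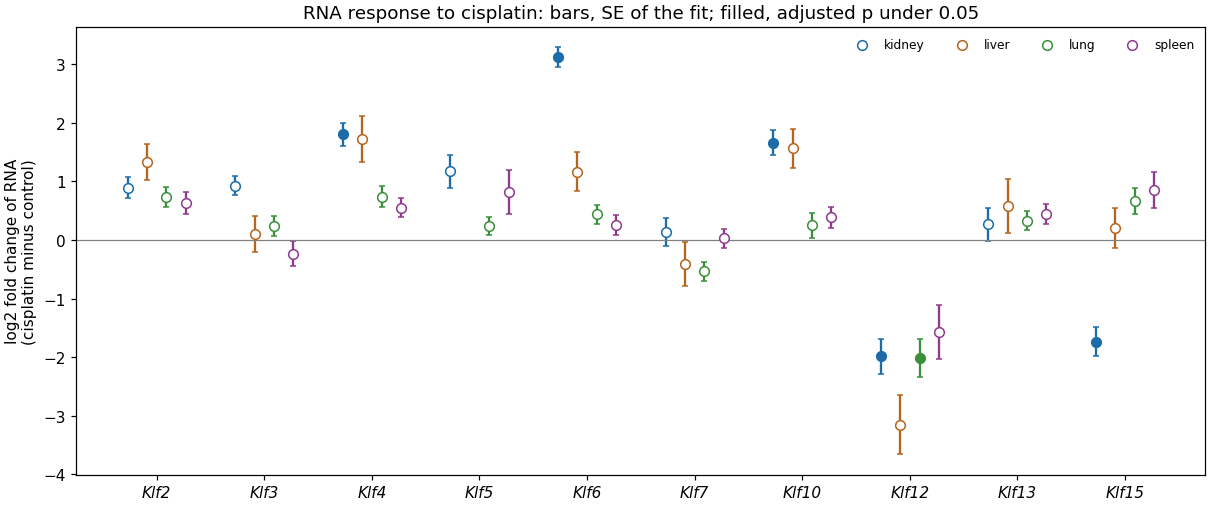
Log2 fold change of RNA, cisplatin minus control (y axis), for the 10 Klf genes (x axis) in 4 organs by colour, with bars for the SE of the edgeR fit and filled circles for adjusted p under 0.05. The filled circles are Klf4, Klf6, Klf10, Klf12 and Klf15 in kidney and Klf12 in lung, and Klf5 has no liver value.

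A test of the difference between organs, in 1 fit over 14 samples, asked whether a response was particular to an organ. It called 1 member, Klf6 (adjusted p = 0.0230), against 0.209% of 19100 genes. No member was called when any 1 of the 4 kidney libraries, a liver control library or a lung cisplatin library was left out, and 2 were called without either liver cisplatin library. For Klf6 the kidney response exceeded the mean of the other organs by 2.54 on the log2 scale (SE 0.28, adjusted p = 0.00417). The same contrast, called in 0.45% of genes, gave -2.28 for Klf15 (SE 0.33, adjusted p = 0.0165), although the test over the 4 organs did not call it (adjusted p = 0.0793). For Klf4 and Klf10 the kidney excess was 0.83 and 0.96, with adjusted p = 0.205 and 0.270. For Klf12 it was 0.29 (SE 0.52, adjusted p = 1.00), so no organ difference was detectable in the lower Klf12 values. The adjusted p for Klf6 in the kidney contrast was 0.0667 and 0.0508 without kidney control replicate 1 and 2, with log2 values of 2.53 and 2.56. For Klf15 it was 0.0944 without kidney control replicate 2 and 0.107 and 0.148 without kidney cisplatin replicate 1 and 2, with log2 values of -1.93, -2.40 and -2.18, and without TMM it was 0.0614 (-2.36).

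Related genes were counted by list. Of the other Klf genes (Klf1, Klf8, Klf9, Klf11, Klf14, Klf16 and Klf17), 5 could be tested in kidney and none was called, and none was called in the other organs. In liver no gene of any kind passed, so no list could have a call there. The study, with its own fit, reports Klf9 as raised after cisplatin in liver, lung and spleen. Of the Sp genes, relatives that bind the same GC boxes, 5 were tested in kidney and none was called there, nor in the other organs. Among 14 co-regulators and upstream genes, 13 were tested in each organ. In kidney 2 of them fell, Map2k5 (log2 fold change -1.69, adjusted p = 0.0412), a kinase upstream of Klf2 and Klf4 induction, and Fbxw7 (-1.40, adjusted p = 0.0438), a ubiquitin ligase subunit. In lung Map2k5 (-1.51, adjusted p = 0.0440) and the MADS box factor Mef2c (-1.33, adjusted p = 0.0259) fell. Of 8 textbook targets, Cdkn1a, which encodes the cell cycle inhibitor p21 and is also a p53 target, rose in kidney (4.33, adjusted p = 0.00718) and lung (1.91, adjusted p = 0.0190). The Klf2 target S1pr1, a receptor of lymphocytes and endothelium, rose in kidney (1.58, adjusted p = 0.0154). Map2k5 and Cdkn1a passed in the most organs of their lists, and the others are named because the counts are small, after their values were seen. No gene of these lists was called in liver or spleen.

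For each called member the gene outside the family with the most similar course was sought, by Pearson's r of log2 CPM centred on the organ mean over the 14 samples. For Klf6 it was Pvr (r = 0.993), for Klf10 Gadd45b (r = 0.987), for Klf12 Wrn (r = 0.983), for Klf4 Aen (r = 0.981) and for Klf15 Glt1d1 (r = 0.926). Among the members themselves Klf4 and Klf10 were most alike (r = 0.972), and Klf2 and Klf12 were most opposed (r = -0.958). These values describe how the samples line up, since all genes share the same libraries.

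The sequence just before the start site was read for the called members that have a RefSeq promoter. RefSeq windows on GRCm38.p6 were matched for 8 of the 10 members, Klf5 and Klf10 not among them, and are shown without annotated exon bases, 5′ to 3′ on the gene's strand. Capitals mark GGGCGG (the GC box), CACCC (the box that Krueppel-like factors bind) or their reverse complements, which may overlap. Klf4 and Klf6 rose in kidney, Klf12 and Klf15 fell. The windows are chr4:55532476-55532725 (minus) for Klf4, chr13:5861239-5861481 (plus) for Klf6, chr14:100149797-100150046 (minus) for Klf12 and chr6:90462326-90462575 (plus) for Klf15.
Klf4: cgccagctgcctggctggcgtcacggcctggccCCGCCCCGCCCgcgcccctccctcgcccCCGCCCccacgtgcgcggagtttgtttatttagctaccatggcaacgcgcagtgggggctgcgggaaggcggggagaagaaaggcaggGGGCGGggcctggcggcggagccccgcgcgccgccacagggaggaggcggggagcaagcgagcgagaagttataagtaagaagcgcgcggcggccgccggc
Klf6: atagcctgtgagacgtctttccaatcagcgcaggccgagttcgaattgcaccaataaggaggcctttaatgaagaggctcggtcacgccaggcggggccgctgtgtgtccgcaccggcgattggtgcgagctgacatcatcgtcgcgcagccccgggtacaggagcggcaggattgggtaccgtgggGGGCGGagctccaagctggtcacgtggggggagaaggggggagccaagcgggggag
Klf12: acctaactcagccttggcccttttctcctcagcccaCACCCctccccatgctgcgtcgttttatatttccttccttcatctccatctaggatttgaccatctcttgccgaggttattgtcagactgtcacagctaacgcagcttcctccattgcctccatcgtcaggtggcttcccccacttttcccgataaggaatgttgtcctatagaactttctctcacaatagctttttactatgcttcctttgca
Klf15: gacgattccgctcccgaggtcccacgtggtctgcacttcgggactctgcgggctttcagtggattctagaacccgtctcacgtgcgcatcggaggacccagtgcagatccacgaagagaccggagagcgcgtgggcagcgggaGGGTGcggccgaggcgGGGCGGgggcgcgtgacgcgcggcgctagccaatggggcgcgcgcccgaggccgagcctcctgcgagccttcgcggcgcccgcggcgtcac

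The window of Klf4 held 4 GC boxes and no CACCC box, that of Klf6 1 GC box and no CACCC box, that of Klf12 1 CACCC box and no GC box, and that of Klf15 1 of each. Over the 250 bases before the start, 7 of 8 member windows held a GC box and 6 of 8 a CACCC box, beside 32.7% and 52.0% of the 32851 RefSeq windows of that length. Neither TGACGTCA (the cAMP response element) nor the CArG element bound by serum response factor was found in the 8 member windows, and they were in 1.55% and 1.47% of all windows. The Klf12 window belongs to a start inside the longer GENCODE gene. A match describes letters only, and a link between the boxes and the direction of the RNA response was not tested.

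XR-seq asked how strongly each strand was repaired. The repair level is given as reads per 1000000 reads on genes and 1000 GG dinucleotides of the strand, since cisplatin lesions form mainly at GG. Transcription-coupled repair acts on the transcribed strand (TS), the template read by RNA polymerase, and global repair acts on both TS and the non-transcribed strand (NTS). TS exceeded NTS past the test in all 10 members in kidney, lung and spleen and in 9 in liver, where 60.5%, 63.4%, 62.2% and 54.6% of the 18875 genes did so. The median TS to NTS ratio of the members was 9.94 in kidney (all genes 6.65), 7.41 in liver (all genes 4.51), 9.37 in lung (all genes 9.45) and 14.6 in spleen (all genes 8.97). Klf5 in liver, the gene and organ with the lowest RNA level, did not pass, with a ratio of 2.67 (adjusted p = 0.0864). With the liver libraries fitted alone it passed (adjusted p = 0.0178). With the kidney libraries fitted alone Klf2 did not pass in kidney (adjusted p = 0.207). Among the calls, that of Klf2 in kidney was lost without kidney replicate 2 (adjusted p = 0.0820), that of Klf4 in liver without liver replicate 2 (0.0691) and that of Klf15 in liver without either replicate (0.107 and 0.135).

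Among the members that rose in kidney, Klf4 had its highest TS repair there, with 127 and 90.0 in the 2 libraries, against 71.2 and 68.6 in lung, 33.0 and 42.0 in spleen and 11.5 and 15.1 in liver. Kidney exceeded the mean of the other organs by 1.73 on the log2 scale (adjusted p = 8.61e-06). The NTS of Klf4 stayed between 2.16 and 6.86 in all 8 libraries, so its TS to NTS ratio in kidney reached 32.8, the highest of the 40 pairs of gene and organ. Klf15 came close, with 31.2 in spleen and 30.5 in lung. The Klf4 ratio did not differ between organs past the test (adjusted p = 0.0870). Klf10 also had more TS repair in kidney than in the other organs (0.81, adjusted p = 0.000339), with means of 83.5 in kidney and 45.2 to 50.7 elsewhere. For Klf6 the TS level was 47.2 and 67.8 in kidney, 50.5 and 43.9 in lung, 34.3 and 40.8 in spleen and 34.6 and 28.1 in liver. The kidney excess of Klf6 was 0.59 (adjusted p = 0.0320). Its mean RNA level after cisplatin was 117 RPKM in kidney, 74.1 in lung, 39.0 in spleen and 16.2 in liver. Kidney TS repair was also higher in GG-rich genes in general, with genes split by GG density into 5 equal classes. The median kidney excess was 0.17 in class 3 (with Klf5 and Klf6), 0.21 in class 4 (with Klf10) and 0.34 in class 5 (with Klf4). The part of GG density in these TS values was not tested.

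Klf5 differed most between organs in TS repair: kidney had a mean of 41.1 (SD 7.98, n = 2), lung 12.5 (SD 2.19), spleen 8.26 (SD 0.948) and liver 1.41 (SD 0.0429). Its kidney level exceeded the other organs by 2.96 on the log2 scale (adjusted p = 2.86e-07), although its RNA was higher in lung than in kidney. Klf2 had the reverse in kidney, with 44.0 and 42.4 on the TS against 85.2 and 61.0 in lung, 64.4 and 80.2 in spleen and 83.3 and 85.5 in liver (kidney against the others -0.83, adjusted p = 0.00862). TS repair differed between organs for all 10 members (64.1% of genes) and NTS repair for 4, Klf7, Klf12, Klf13 and Klf15 (33.1% of genes). Klf2 and Klf6 were nearest the threshold on the TS (adjusted p = 0.0228 and 0.0342 in the edgeR test over the organs). With TMM factors the counts were 8 on the TS and 5 on the NTS. The TS count also fell for most of the single libraries left out.

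Klf7, Klf13 and Klf15 were the members whose TS to NTS ratio differed between organs, as in 25.7% of genes. Without kidney replicate 2, 7 members had a different ratio. For Klf7 the ratio ran from 5.94 in kidney over 9.20 in lung and 14.7 in spleen to 20.9 in liver. Its TS level in liver, 33.2 and 41.6, was close to that in spleen, 39.3 and 35.8, while its RNA was 0.896 and 0.849 RPKM in liver and 2.75 and 2.66 in spleen after cisplatin. For Klf13 and Klf15 the NTS was high in liver: 19.2 and 21.2 for Klf13 against 6.74 to 10.4 in the 6 other libraries, and 12.7 and 12.4 for Klf15 against 0.234 to 3.61. Their ratios in liver were 1.95 and 3.44, and in spleen 7.31 and 31.2. On the opposite strand of Klf13, GENCODE has E030018B13Rik, which overlaps 3683 bp and had mean RNA of at most 0.196 RPKM in any group, and Gm27252, which overlaps 3166 bp and whose RNA was not analysed here. The part of either gene in the NTS value was not tested. Klf7 too has opposite-strand genes, Gm13748, which overlaps 12129 bp, and Gm26649, which overlaps 3465 bp. Their part in the NTS values of Klf7 was not tested.

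Klf12 had the lowest TS repair of the 10 members in kidney, lung and spleen, with means of 7.73 (SD 3.55), 5.75 (SD 0.00720) and 7.66 (SD 0.0311), and 19.8 (SD 1.94) in liver. Its NTS was also the lowest of the 10 in these 3 organs, at 0.568, 0.360 and 0.358. The ratio stayed high, at 12.9, 9.61, 16.0 and 21.4 in kidney, liver, lung and spleen.

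**Figure D3:**
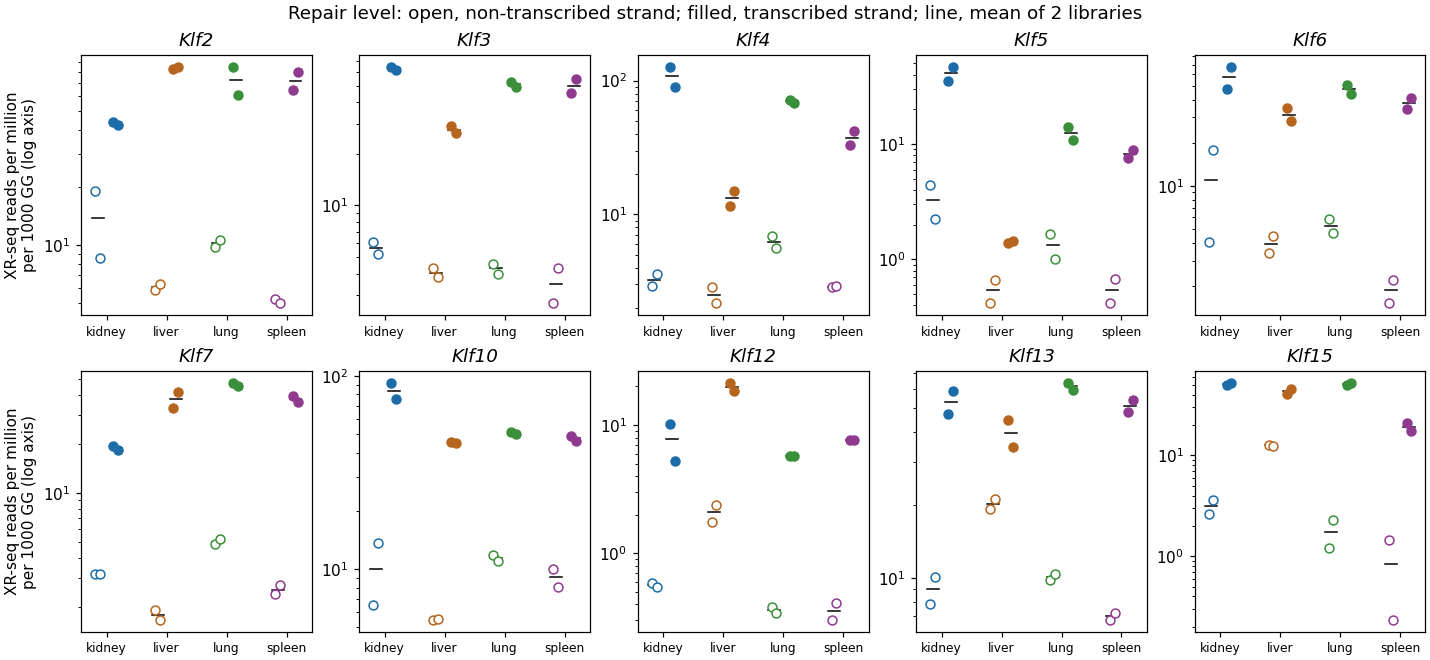
XR-seq repair level in reads per 1000000 reads on genes and 1000 GG dinucleotides (log axis, with its own range in each panel) by organ, with open circles for NTS libraries, filled circles for TS libraries and a line for the mean of 2 libraries. TS lies above NTS in each panel, and the distance is smallest for Klf13 in liver, with a ratio of 1.95.

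RNA and TS repair were set side by side. Across the 10 members within an organ, Pearson's r between log2 RNA after cisplatin and log2 TS repair was 0.912 in spleen, 0.816 in lung, 0.790 in liver and 0.784 in kidney. These are descriptions over 10 genes that share libraries. Across the 4 organs within a gene the r ran from -0.103 for Klf10 to 0.986 for Klf6, with a median of 0.640. The organ with the highest RNA after cisplatin was also the organ with the highest TS repair for 3 members, Klf6 in kidney, Klf7 in lung and Klf12 in liver. The lowest organ was the same for 6, Klf2, Klf3, Klf4, Klf5, Klf6 and Klf15.

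**Figure D4:**
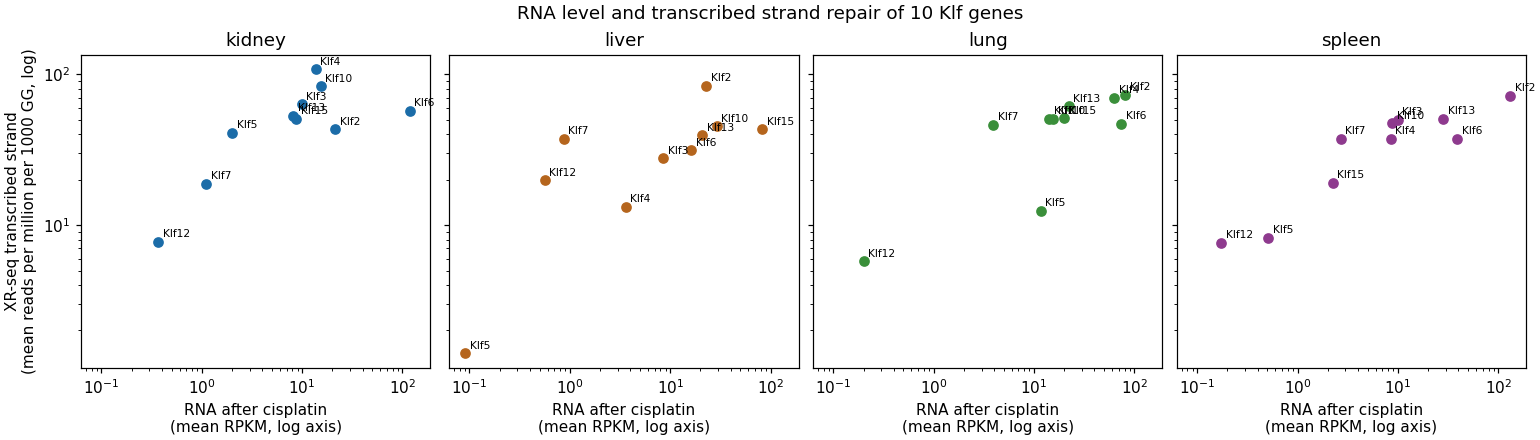
Mean RNA level after cisplatin (x axis, RPKM with TMM-scaled library sizes, log axis) against mean XR-seq TS level (y axis, reads per 1000000 reads on genes and 1000 GG, log axis), 1 point per Klf gene and 1 panel per organ, means of 2 libraries. Klf12 sits at the lower left in kidney, lung and spleen and Klf5 in liver, and Klf6 in kidney lies far right at a TS level of 57.5.

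Damage-seq asked where lesions remained. Its reads are few: a member of the length of Klf2 had 4 to 32 reads per strand and organ over both libraries, while Klf12 had 604 to 2147. TS was below NTS past the test in 2 members in kidney (Klf3 and Klf13), 6 in liver (Klf3, Klf6, Klf7, Klf12, Klf13 and Klf15), 7 in lung (Klf2, Klf3, Klf6, Klf7, Klf10, Klf13 and Klf15) and 3 in spleen (Klf6, Klf12 and Klf13). Over all genes the shares past the test were 23.1%, 36.1%, 29.7% and 14.5%. The members' median TS to NTS ratio was 0.692, 0.482, 0.453 and 0.766 in the same order, beside 0.848, 0.728, 0.813 and 0.826 for all genes. Counts fell when libraries were left out, to 0 in spleen without either replicate, 3 in lung without replicate 2, 3 in liver without replicate 1 and 0 in kidney without replicate 1.

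Klf13 had less damage on the TS in every organ. In liver its TS level was 2.74 and 3.23 and its NTS level 9.54 and 10.1 (ratio 0.301, log2 SE 0.21, adjusted p = 1.17e-11), and in lung 3.23 and 4.47 against 9.57 and 11.8 (ratio 0.360, adjusted p = 2.43e-12). In kidney TS was 10.0 and 11.4 against 17.1 and 14.6 (ratio 0.677, adjusted p = 0.00120) and in spleen 6.27 and 5.90 against 7.95 and 10.7 (ratio 0.640, adjusted p = 0.0337). The strands were apart in all 4 organs, more so in liver and lung. The kidney call was lost without kidney replicate 1 (adjusted p = 0.487) and the spleen call without replicate 1 and 2 (0.0550 and 0.682). Klf3 had ratios of 0.427 in kidney, 0.264 in liver and 0.265 in lung, all past the test, and 0.817 in spleen, where TS read 6.19 and 2.55 and NTS 4.53 and 5.29.

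Klf6 was the member with the most uneven strands in spleen. Its 2 spleen libraries had 0 and 1 TS reads and 9 and 8 NTS reads, a TS share of 5.56% (95% Wilson interval 0.988 to 25.8), whereas 45.6% of its GG dinucleotides lie on the TS. The call (adjusted p = 0.00680) was lost without either library (adjusted p = 0.204 and 0.0530). In liver the TS share of Klf6 was 16.3% (8.51 to 29.0), in lung 25.0% (17.1 to 35.0) and in kidney 36.9% (30.2 to 44.3), and the kidney ratio of 0.707 did not pass (adjusted p = 0.346). These intervals cover counting error only.

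Klf4 and Klf5 were not called in any organ, and Klf12 had ratios closer to 1 than most members. For Klf4 the kidney ratio of 0.464 came nearest (adjusted p = 0.0561). Klf5 did not pass in any organ, with ratios of 1.35 in lung, 1.01 in liver, 0.891 in kidney and 0.697 in spleen, although its RNA in lung was 11.6 and 11.7 RPKM after cisplatin and its XR-seq ratio there was 9.55. Its TS share in lung was 59.7% (51.2 to 67.6) with 52.3% of the GG dinucleotides on the TS. Klf12, with the deepest counts, had ratios of 0.903 in lung, 0.896 in kidney, 0.848 in spleen and 0.642 in liver, with log2 SE of 0.0643 to 0.0838. Liver (adjusted p = 2.77e-12) and spleen (adjusted p = 0.0389) passed, spleen not without either replicate (0.316 and 0.182), and kidney and lung did not (adjusted p = 0.0684 and 0.0723). Liver was also the organ with the highest TS repair and RNA of Klf12. For Klf6 TS repair and RNA after cisplatin were highest in kidney, where its damage ratio of 0.707 was closest to 1. That ratio did not differ between organs past the test (adjusted p = 0.0845). Its liver, lung and spleen values rest on 8, 22 and 1 TS reads.

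**Figure D5:**
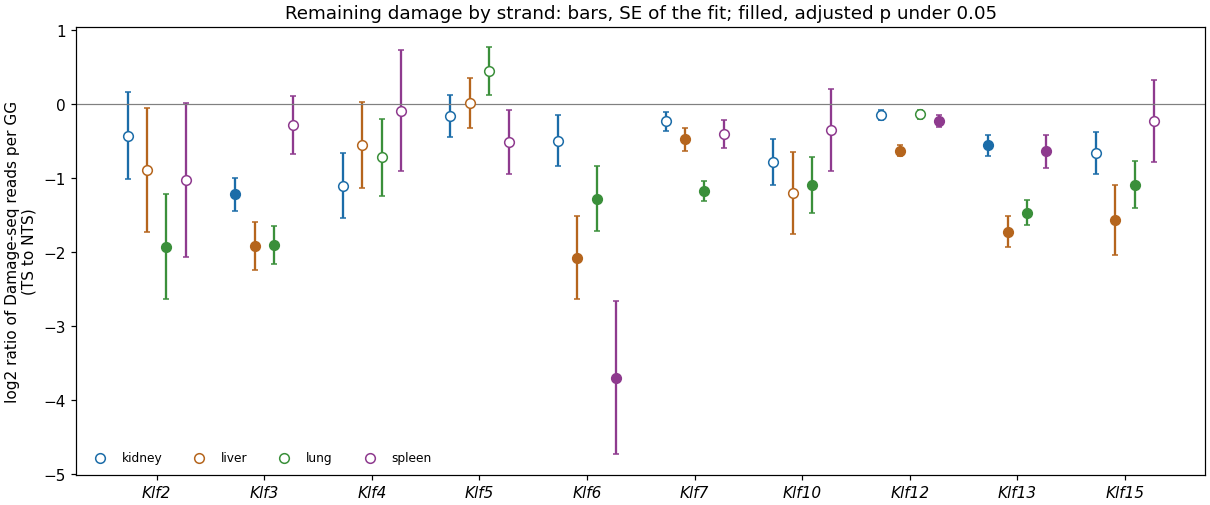
Log2 ratio of Damage-seq reads per GG, TS to NTS (y axis), for the 10 Klf genes (x axis) in 4 organs by colour, with bars for the SE of the fit and filled circles for adjusted p under 0.05. Values below 0 mean less remaining damage on the TS. Klf6 in spleen rests on 1 TS read, and Klf4 and Klf5 have no filled circle.

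The damage ratio differed between organs for Klf3, Klf7, Klf12 and Klf13, as in 11.3% of genes. Klf7 had 0.847 in kidney, 0.751 in spleen, 0.717 in liver and 0.441 in lung, lowest in lung, where its TS repair and RNA were highest. For Klf6 the organ with the highest TS repair and RNA after cisplatin, kidney, had the ratio closest to 1. The Klf6 ratio did not differ between organs past the test, however (adjusted p = 0.0845). The TS damage level differed between organs for 7 members (Klf3, Klf6, Klf7, Klf10, Klf12, Klf13 and Klf15, 34.7% of genes) and the NTS level for 4 (Klf3, Klf10, Klf13 and Klf15, 19.5% of genes). In all 4 of the latter the kidney NTS was higher than in the other organs, by 0.81, 1.15, 0.67 and 1.08 on the log2 scale (adjusted p = 0.000224, 0.000827, 4.70e-05 and 0.000243). Without kidney replicate 1 only 1 member had a different NTS level. Kidney libraries had more NTS reads in GG-rich genes in general: with genes split by GG density into 5 equal classes, the median kidney excess rose from -0.23 in class 1 to 0.71 in class 5. Klf3, Klf10 and Klf13 lie in class 4 (median 0.42) and Klf15 in class 5. The part of GG density in the members' values was not tested. Klf6 had a higher TS damage level in kidney too, with 11.2 and 11.5 against 3.19 and 4.91 in lung, 2.63 and 2.61 in liver and 0 and 0.960 in spleen (kidney against the others 2.58, adjusted p = 1.74e-05). In class 3 of GG density, where Klf6 lies, the median kidney excess of TS damage was 0.27.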

How the data were processed

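RNA-seq, XR-seq and Damage-seq libraries of 4 organs were used. The authors deposited counts of reads per Ensembl gene, in total for RNA-seq and per strand (TS, NTS) for the other assays, on mm10. The submitters' notes name cutadapt, BWA and Picard for Damage-seq and XR-seq and STAR, featureCounts and DESeq2 for RNA-seq. Depth ranged from 1571167 to 162270280 reads on genes. In 16 strand files 1 row without a gene name held 0 reads and was left out. Positions came from GENCODE and GG dinucleotides from GRCm38.p6, and genes in the strand fits had at least 10 GG and 20 reads per assay.

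Counts were fitted with edgeR 4.0.16 in R 4.3.3 (quasi-likelihood, TMM, genes with low counts left out by filterByExpr), per organ for cisplatin against control with a log2 threshold of 0.4, and over all organs for organ differences. Strands were compared within libraries, with reads on genes and GG as offsets. P-values were adjusted over all genes tested (Benjamini-Hochberg, 0.05). DESeq2 1.42.0 was an alternative. The fits were tested on simulated data. The study calls the 2 libraries per group biological replicates, but lung and spleen control pairs with an index of at most 3 were summed. SD uses n = 2.

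Named were all 10 members. Genes of the other lists are named where they passed in the most organs, at most 4 a list. Likeness took the 1 gene with the highest r. Member genes and lists were chosen with earlier results of these data known. Protein sequences were not used here, so no zinc finger stretch was compared. The result of 1 gene of the target list is not reported here.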

Additional observations from a re-analysis of the deposited data

Results flagged for a closer look

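The following results differed between organs by a test of the difference itself, and no explanation was weighed for them. The RNA response of Klf6 to cisplatin differed between the 4 organs (adjusted p = 0.0230), and its kidney response minus the mean response of the others was 2.54 on the log2 scale. The same kidney contrast for Klf15 was -2.28 on the log2 scale, although the test over the 4 organs did not call Klf15 (adjusted p = 0.0793). The XR-seq TS to NTS ratio differed between organs for Klf7 (adjusted p = 0.00549), Klf13 (adjusted p = 0.00184) and Klf15 (adjusted p = 0.0283). The Damage-seq TS to NTS ratio differed between organs for Klf3 (adjusted p = 0.0332), Klf7 (adjusted p = 0.000634), Klf12 (adjusted p = 0.000206) and Klf13 (adjusted p = 0.000176). Groups of 2 libraries are too small for a search for single libraries far from the rest.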

How the results depend on the processing

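The main counts of members called in the RNA response were 5 in kidney, 1 in lung and 0 in liver and spleen, and no direction of a called member was reversed by an alternative. With DESeq2, 1 member and 188 genes were called in liver and 85 genes in spleen. Without TMM 0 members were called in lung. Tested against a log2 fold change of 0, 8 members and 1711 genes passed in kidney and 804 genes in lung. Without the filter on low counts the genes were 1896 in kidney, 1089 in lung, 155 in liver (1 member) and 58 in spleen, and the organ difference took in 2 members. In 1 fit over the 4 organs kidney had 4 members, Klf12 being lost (adjusted p = 0.0525), liver had 4 members and 518 genes, and lung 0 members and 70 genes. With each library as a replicate, 3 members and 1606 genes passed in lung and 62 genes in spleen, and the organ difference took in 4 members.

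With the replicate block, which pairs same-numbered libraries, the calls were 8 members and 3182 genes in kidney, 3 and 1914 in lung, 5 and 1015 in liver, and 0 and 172 in spleen. The labels do not say that the numbers mark a pairing, and the correlation of replicate differences was 0.446, 0.054, 0.370 and 0.337 in the same order, so not over 0.1 in each organ.

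Leaving out 1 library at a time, members called ranged from 2 to 6 in kidney, 0 to 0 in lung, 0 to 5 in liver and 0 to 0 in spleen, and genes called from 123 to 2005, 0 to 339, 22 to 1840 and 22 to 97 in that order. The organ difference, left out so after the data were seen, ranged from 0 to 2 members, the XR-seq ratio between organs from 2 to 7 and the Damage-seq NTS level from 1 to 5. Members with Damage-seq TS below NTS ranged from 0 to 2 in kidney, 3 to 5 in lung, 3 to 6 in liver and 0 to 0 in spleen. Raw reads without GG gave 5 in kidney, and libraries of the organ alone gave 5 in kidney, 4 in lung and 0 in spleen. Of the values of single genes under the alternatives, 750 kept their side of the threshold, 43 gained a call and 47 lost one, none with a change of sign in a called value. Depth limits the Damage-seq values, and a lone control was assumed to vary like the other samples. Leaving out a lung or spleen cisplatin library left 1 sample per group, so those RNA values came from the fit over the 4 organs. The RNA ranges of lung and spleen therefore mix a change of fit with a left-out library.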
